A study of Mus musculus with 8 samples.

Results

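Autophagy genes were described as a set of 38 genes that carry out the steps of macroautophagy, chosen by gene symbol and matched through a GENCODE annotation to the Ensembl gene IDs of the count files. The set, its roles and the other gene lists were chosen with earlier results of these data known. Their counts beside the shares of all tested genes are therefore descriptions and not an independent test. All 38 were found among the 55573 gene IDs counted, and all 38 passed the filter on low counts that left 18205 genes for testing. They were divided by role into 5 genes of the initiation complex, 6 genes of the nucleation (lipid kinase) complex, 6 genes of vesicle formation, 10 lipidation enzymes, 5 Atg8 proteins, 5 cargo receptors and adaptors, and 1 fusion gene. RNA was measured in cortical cells that had been sorted for tdTomato from mice aged 6 and 18 months, to compare intact with deleted Dnmt1, the gene of the maintenance DNA methyltransferase. Mice of every group had a C57BL/6 background and carried PV-Cre, a Cre recombinase expressed from the parvalbumin locus, and the tdTomato reporter. WT mice were PV-Cre/tdTomato/Dnmt1 wild-type. KO mice were PV-Cre/tdTomato/Dnmt1 loxP2, from the line B6;129Sv-Dnmt1tm4Jae/J, whose loxP sites lie around exons 4 and 5 of Dnmt1. Each of the 4 groups (WT and KO at 6 months, WT and KO at 18 months) had 2 libraries, given as technical replicates of cells pooled from 6 WT and 6 KO mice, with 1 hemisphere of each brain used for RNA. The sources used here do not say whether those numbers hold per age. All p-values therefore measure only how far libraries of pooled cells differ from each other, a spread that may be technical, and say nothing of variation between mice.

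The libraries held 6008175 to 13551218 counts. Levels are given as CPM, the counts of a gene scaled by the TMM-adjusted total of its library. Dnmt1 itself was at 97.9 and 104 CPM in 6-month WT, 77.2 and 75.2 in 6-month KO, 80.8 and 81.1 in 18-month WT, and 74.3 and 76.6 in 18-month KO. Dnmt1 was lower in KO than in WT at 6 months, with an edgeR adjusted p of 1.00e-04 for a log2 fold change of -0.40 ± 0.0736 (SE). At 18 months it was not detectably lower (-0.10 ± 0.0692, edgeR adjusted p = 0.281). Dnmt1 was also lower with age in WT (-0.32 ± 0.0721, edgeR adjusted p = 0.000586), and its interaction of genotype and age was 0.30 ± 0.101 (edgeR adjusted p = 0.0202). These counts cover the whole gene and not only the deleted exons. The labels name parvalbumin interneurons, yet Pvalb had 6 reads over all 8 libraries and at most 2 in any. The 9 oligodendrocyte markers summed to group means of 13412 CPM in 6-month WT, 29572 CPM in 6-month KO, 38869.9 CPM in 18-month WT and 26555 CPM in 18-month KO. The 7 parvalbumin interneuron markers summed to group means of 142 to 179 CPM, the 6 GABA neuron markers to 615 to 1243 CPM, the 5 pan-neuronal markers to 70.3 to 307 CPM, highest in 6-month WT and lowest in 18-month KO, and the 6 microglia markers to 43.4 to 113 CPM. The 10 astrocyte markers ordered the groups in reverse of the oligodendrocyte markers, with 11611 CPM in 6-month WT, 7086 CPM in 6-month KO, 4024 CPM in 18-month WT and 8673 CPM in 18-month KO. The 7 oligodendrocyte precursor markers summed to group means of 1276 to 3519 CPM, and the 6 pericyte and smooth muscle markers to 836 to 2004 CPM. For the 6 excitatory neuron markers the group means were 50.1 to 213 CPM, and for the 5 endothelial markers 57 to 84 CPM. No list had a marker without reads. The WT libraries at 6 months stood apart: across genes their log2 CPM correlated with those of other groups at Pearson's r of 0.9 to 0.951, against 0.958 to 0.977 among libraries of the other 3 groups. These 2 libraries also had the lowest totals (6008175 and 6024905 counts), the highest share of counts in the noncoding gene Gm26917 (9.97% and 9.29%, against 1.67% to 4.98% elsewhere) and the lowest share in mitochondrial rRNA (1.04% and 0.672%, against 1.76% to 6.15%). The part of these differences in the results was not tested. The 3 comparisons that rest on these libraries are the genotype comparison at 6 months, the age comparison in WT, and the interaction of genotype and age, and none of them can be made without these libraries.

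Autophagy encloses cytoplasm in a double membrane, the autophagosome, and delivers it to the lysosome for breakdown. The Ulk kinase complex starts the process, a class III phosphatidylinositol 3-kinase marks the membrane, lipid transfer proteins and scramblases extend it, and a ubiquitin-like conjugation cascade attaches Atg8 proteins (LC3 and GABARAP) to its lipid. Receptors such as p62 bind cargo to the Atg8 proteins. In the brain the pathway is known for the turnover of protein aggregates and mitochondria, both in long-lived neurons and in glia. All values here are transcript levels, and none measures autophagic flux.

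**Figure D1:**
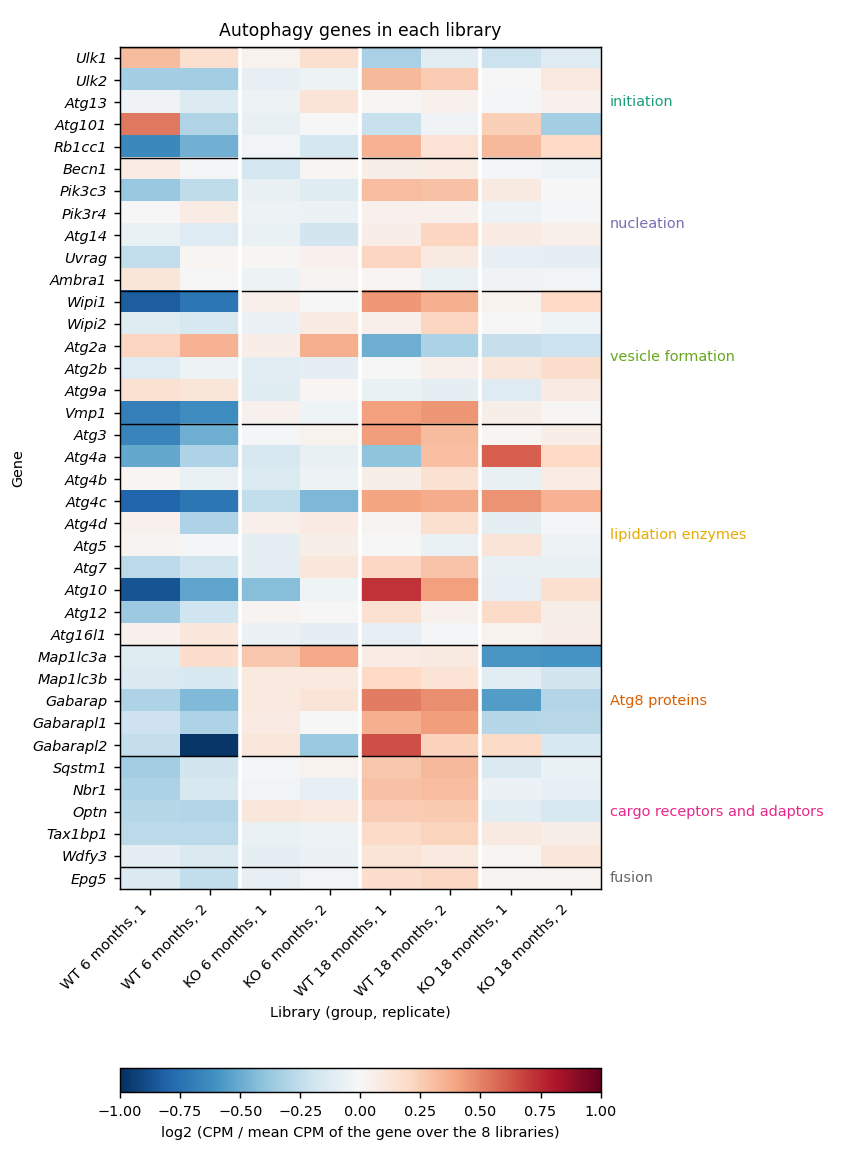
Heat map of the 38 autophagy genes (vertical axis, grouped by role) in the 8 libraries (horizontal axis), coloured by log2 of the CPM over the gene's mean CPM across the libraries. Genes such as Wipi1, Vmp1 and Atg3 are lowest in both WT libraries at 6 months and highest in both WT libraries at 18 months, and Map1lc3a is lowest in both KO libraries at 18 months.

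Compared per length, autophagy genes were expressed at a median level of 10.3 RPKM (CPM divided by the kilobases of exon), against 3.86 RPKM over all tested genes. Sqstm1, the gene of the cargo receptor p62, had the highest mean level of the set over the 8 libraries, 91.2 RPKM. It was followed by the Atg8 genes Gabarapl1 (52.4 RPKM) and Gabarap (51.1 RPKM), by Vmp1 of vesicle formation (46 RPKM) and by the receptor gene Nbr1 (44.3 RPKM). At the low end stood the protease gene Atg4a (2.12 RPKM), the lipid transfer gene Atg2a (2.37 RPKM) and the conjugating enzyme gene Atg10 (3.14 RPKM). RPKM values rest on the annotated exons of all transcripts of a gene, so a gene that uses short isoforms is understated.

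At 6 months, autophagy genes were higher in KO than in WT or not called: 16 of 38 were higher and 0 lower, with a median log2 fold change of 0.20, where 19.2% of all tested genes were called higher and 19.6% lower and the median was -0.00. Calls here are those of edgeR's quasi-likelihood test at an adjusted p under 0.05. Without adjustment 18 were higher and 0 lower at p under 0.05, and DESeq2 called 13 higher and 0 lower. At 18 months the order of the genotypes was the other way round: 0 of 38 were higher in KO and 14 were lower, with a median of -0.14, where 14.7% of all tested genes were called higher and 17.4% lower and the median was 0.00. The unadjusted counts were 0 higher and 18 lower, and DESeq2 called 0 and 13. The genotype comparisons at the 2 ages share no library. In bulk RNA, fewer cells of a type and less RNA per cell cannot be told apart, and this holds for every difference given here.

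With age, 22 of 38 autophagy genes were higher and 3 lower in WT (median 0.34), where 28.2% of all tested genes were called higher and 30.8% lower (median -0.04). In KO, 3 were higher and 7 lower with age (median 0.03), where 13.8% of all tested genes were higher and 17.9% lower. The count of 7 was 3 without KO library 2 at 6 months and 4 without either KO library at 18 months (library numbers are the replicate numbers of the labels), and DESeq2 called 4 higher and 3 lower. The interaction of genotype and age, which subtracts the genotype difference (log2, KO over WT) of the younger mice from that of the older mice, was negative for 22 of 38 genes and positive for 0, with a median of -0.35; among all tested genes 20.7% were called negative and 18.4% positive, with a median of 0.01. Without adjustment 22 were negative and 1 positive, and DESeq2 called 18 negative and 0 positive. The counts in KO against WT at 6 months, in WT with age and in the interaction all use the WT libraries at 6 months and are not independent of each other. Scaled to library totals without TMM, the median of all tested genes moved to 0.14 for KO against WT at 18 months, -0.14 and 0.10 with age in WT and KO, and 0.21 for the interaction. The share of all calls that were higher then moved from 45.8% to 69.8% at 18 months, from 43.5% to 60.2% with age in KO and from 47.1% to 64.3% for the interaction. Under that scaling the calls among the autophagy genes were 2 higher and 7 lower, 10 higher and 3 lower, and 5 positive and 12 negative in these 3 comparisons. Among the 18205 tested genes they were 4268 higher and 1848 lower, 3839 higher and 2543 lower, and 4769 positive and 2651 negative. The median of the 38 genes was then -0.00 for KO against WT at 18 months, 0.13 with age in KO and -0.15 for the interaction, and it was 0.15 for KO against WT at 6 months and 0.24 with age in WT.

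The summed level of the 38 genes was 2959 ± 21 CPM in 6-month WT, 3363 ± 26.3 CPM in 6-month KO, 3942 ± 10.3 CPM in 18-month WT and 3415 ± 38.7 CPM in 18-month KO (SD, n = 2). By role, the Atg8 genes ran from 265 ± 5.02 CPM in KO to 413 ± 3.76 CPM in WT, both at 18 months, whereas the nucleation genes stayed between 327 ± 5.34 CPM (KO at 6 months) and 362 ± 4.5 CPM (WT at 18 months). Both the sum of all 38 genes and that of the oligodendrocyte markers were lowest in 6-month WT and highest in 18-month WT. All 9 of these markers were higher in KO at 6 months, lower in KO at 18 months and higher with age in WT, and 6 of 9 were lower with age in KO. All 10 astrocyte markers were called in the opposite direction in the first 3 of these comparisons and 7 of 10 were higher with age in KO. The part of cell composition in the differences of the autophagy genes was not tested.

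**Figure D2:**
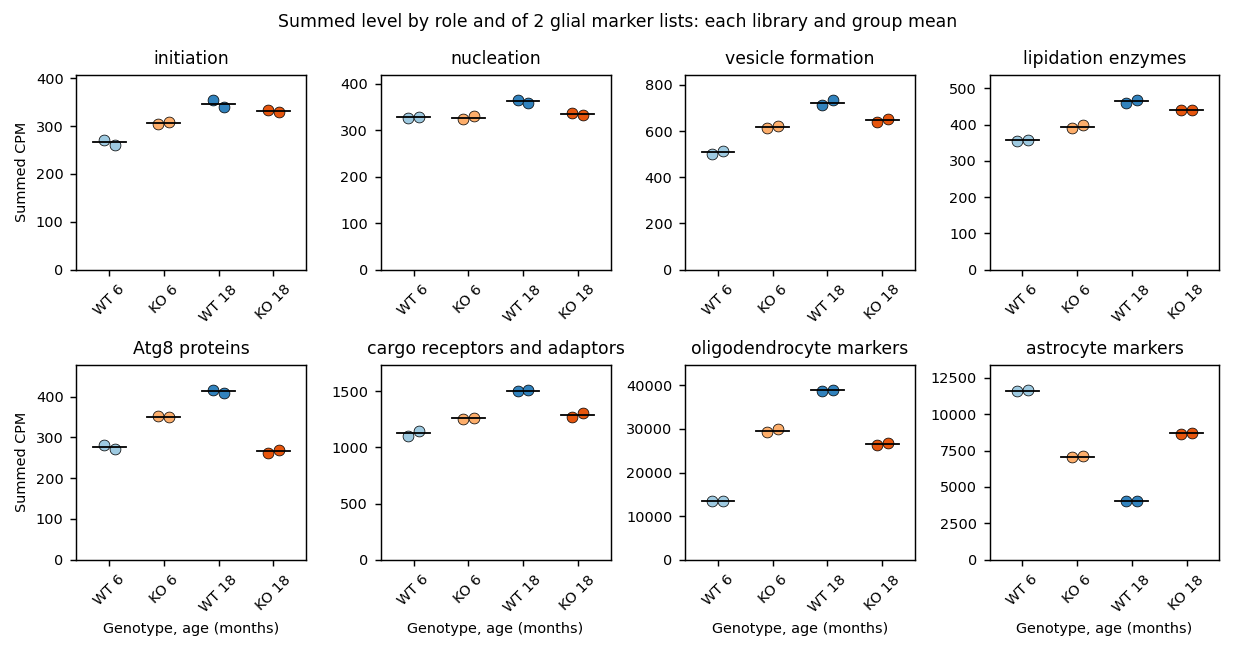
Summed CPM (vertical axes, from 0) of 6 roles of autophagy genes, of 9 oligodendrocyte markers and of 10 astrocyte markers in each library (points) of the 4 groups (horizontal axes), with group means as lines. The sum of the Atg8 genes is lowest in KO at 18 months (265 CPM) and highest in WT at 18 months (413 CPM), while oligodendrocyte markers are lowest in WT at 6 months (13412 CPM).

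Initiation depends on the Ulk complex, in which the kinase Ulk1 or Ulk2 binds the scaffold Rb1cc1 (also called FIP200) with Atg13 and Atg101. Of the 5 genes, 2 were higher in KO at 6 months and 1 was lower in KO at 18 months, where 19.2% and 17.4% of all tested genes were so called. With age in WT, Ulk2 rose and Ulk1 fell. Ulk2 (mm10 chromosome 11, 61775649 to 61855073) was at 78.5 and 78 CPM in 6-month WT, 93.7 and 95.9 in 6-month KO, 124 and 118 in 18-month WT, and 99.4 and 106 in 18-month KO. Both WT libraries at 6 months were the lowest and both WT libraries at 18 months the highest. Ulk2 was higher in KO at 6 months (log2 fold change 0.28 ± 0.074, edgeR adjusted p = 0.0044), lower in KO at 18 months (-0.24 ± 0.0651, edgeR adjusted p = 0.00662) and higher with age in WT (0.63 ± 0.0717, edgeR adjusted p = 5.61e-08). Its age difference in KO was 0.11 ± 0.0673 (edgeR adjusted p = 0.206), and its interaction was -0.51 ± 0.0985 (edgeR adjusted p = 0.000172). Ulk1 (chromosome 5, 110784488 to 110810097) was at 62.4 and 55.9 CPM in 6-month WT, 51.4 and 55.9 in 6-month KO, 40 and 46.5 in 18-month WT, and 43.2 and 45.8 in 18-month KO. All libraries at 18 months lay below all libraries at 6 months. Ulk1 fell with age by 0.44 ± 0.0979 in WT and by 0.27 ± 0.0929 in KO on the log2 scale (edgeR adjusted p = 0.000482 and 0.029), and its level did not differ detectably between the genotypes.

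Rb1cc1 (chromosome 1, 6206197 to 6276648), the scaffold of the complex, was at 66.3 and 74.4 CPM in 6-month WT, 102 and 91.9 in 6-month KO, 132 and 115 in 18-month WT, and 130.4 and 119 in 18-month KO. WT at 6 months was lowest, KO at 6 months intermediate, and the genotypes overlapped at 18 months. Rb1cc1 was higher in KO at 6 months (0.46 ± 0.0886 on the log2 scale, edgeR adjusted p = 0.000181) and higher with age in both WT (0.80 ± 0.086) and KO (0.36 ± 0.0785), with edgeR adjusted p = 2.02e-08 and 0.000957. Its difference at 18 months was 0.02, with a 95% interval of -0.13 to 0.18, and its interaction was -0.44 ± 0.117 (edgeR adjusted p = 0.00415). Atg13 (43.2 to 51.9 CPM over the 8 libraries) and Atg101 (9.66 to 17.6 CPM) were called in no comparison. The lower level of Ulk2 in KO at 18 months was lost without WT library 1 or KO library 1 of that age (edgeR adjusted p up to 0.101, with 0.00203 to 0.293 over 14 alternative fits, those without 1 library and a DESeq2 fit with its own adjusted p among them). That of Ulk1 with age in KO was lost without KO library 2 at 6 months or KO library 1 at 18 months (edgeR adjusted p up to 0.283, with 0.0162 to 0.283 over the alternatives).

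Nucleation genes encode the class III phosphatidylinositol 3-kinase complex and its regulators, and this was the role with the fewest calls for its size: 1 of 6 higher in KO at 6 months, 1 of 6 lower in KO at 18 months, 2 higher with age in WT and 0 with age in KO. The shares of all tested genes were 19.2%, 17.4% and 28.2% in the first 3 of these, and 13.8% higher and 17.9% lower with age in KO. Pik3c3 (chromosome 18, 30272747 to 30348126), the catalytic subunit Vps34, was at 52.3 and 57.2 CPM in 6-month WT, 64.7 and 62.6 in 6-month KO, 84.1 and 83.4 in 18-month WT, and 72.5 and 67.7 in 18-month KO. The groups did not overlap and ran from WT at 6 months through KO at 6 months and KO at 18 months to WT at 18 months. Pik3c3 was higher with age in WT (0.61 ± 0.082, edgeR adjusted p = 6.91e-07), higher in KO at 6 months (0.22 ± 0.0854, edgeR adjusted p = 0.048) and lower in KO at 18 months (-0.26 ± 0.0733, edgeR adjusted p = 0.00919). Uvrag, a subunit of one form of the kinase complex, was at 31.4 and 37.7 CPM in 6-month WT, 37.6 and 38.3 in 6-month KO, 43.1 and 39.6 in 18-month WT, and 35.1 and 34.8 in 18-month KO. Both WT libraries at 18 months lay above both KO libraries of that age. Uvrag was higher with age in WT (0.25 ± 0.107, edgeR adjusted p = 0.0462) and had a negative interaction (-0.37 ± 0.147, edgeR adjusted p = 0.0478). Uvrag shares 1589 bases of exon with the antisense gene Gm45187, and without a stated strand setting the reads of such a pair cannot be told apart.

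The other subunits of the lipid kinase complex did not differ detectably in any comparison. Becn1, the Beclin 1 gene, was at 36.4 to 43.5 CPM over the 8 libraries and shares 3104 bases of exon with Cntd1 on the other strand. Its difference was -0.11 ± 0.102 at 6 months and -0.09 ± 0.0911 at 18 months, with 95% intervals of -0.32 to 0.10 and -0.28 to 0.10. Pik3r4, the regulatory subunit Vps15, was at 57.5 to 62.9 CPM, with a 95% interval of -0.26 to 0.08 at 6 months and -0.23 to 0.08 at 18 months. Atg14, which targets the complex to the autophagosome, was at 20.8 to 27.4 CPM. Ambra1, a Beclin 1 regulator, was at 103 to 117 CPM. The calls of Pik3c3 did not hold without single libraries: that at 6 months was lost without WT library 1, KO library 1 or KO library 2 of that age (edgeR adjusted p up to 0.225, with 0.0348 to 0.225 over the 14 alternatives). Its call at 18 months was lost without WT library 1, WT library 2 or KO library 2 of that age (edgeR adjusted p up to 0.0984, with 0.00332 to 0.266). The age call of Uvrag in WT was lost without WT library 1 or KO library 1 at 6 months or WT library 1 at 18 months (edgeR adjusted p up to 0.336, with 0.0114 to 0.336), and its interaction without any of 6 of the libraries (edgeR adjusted p up to 0.196, with 0.013 to 0.367 over 13 alternatives).

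Vesicle formation genes included Vmp1 and Wipi1, the members with the lowest adjusted p in KO against WT at 6 months. Vmp1 (chromosome 11, 86583865 to 86683836), a lipid scramblase of the endoplasmic reticulum, was at 111 and 115 CPM in 6-month WT, 183 and 173 in 6-month KO, 236 and 241 in 18-month WT, and 185 and 179 in 18-month KO. WT libraries at 6 months lay lowest and WT libraries at 18 months highest, and the KO libraries of both ages lay between them and overlapped. In KO the level was 1.58 times that of WT at 6 months (0.66 ± 0.0645 on the log2 scale, edgeR adjusted p = 1.18e-08). At 18 months it was lower than in WT (-0.39 ± 0.0578, edgeR adjusted p = 1.04e-05). With age it rose 2.11-fold in WT (1.08 ± 0.0632, edgeR adjusted p = 3.57e-13), while its age difference in KO was 0.03, with a 95% interval of -0.09 to 0.15. Wipi1 (chromosome 11, 109573331 to 109611967), which binds the lipid that the kinase complex makes, was at 55.6 and 59.8 CPM in 6-month WT, 102 and 98.1 in 6-month KO, 133 and 126 in 18-month WT, and 101 and 113 in 18-month KO. It had the same order of groups as Vmp1, with the largest log2 fold change of the 38 genes at 6 months (0.80 ± 0.0817, edgeR adjusted p = 2.43e-08). Wipi1 was lower in KO at 18 months (-0.27 ± 0.0688, edgeR adjusted p = 0.00374) and rose 2.23-fold with age in WT (1.16 ± 0.0793, edgeR adjusted p = 6.26e-12).

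Wipi2, the relative of Wipi1 that recruits the conjugation machinery, was at 127 and 124 CPM in 6-month WT, 133 and 146 in 6-month KO, 143 and 160.1 in 18-month WT, and 139 and 134 in 18-month KO. KO libraries lay above WT at 6 months and below WT at 18 months without passing the test (edgeR adjusted p = 0.0937 and 0.0788). Wipi2 was higher with age in WT (0.28 ± 0.0703, edgeR adjusted p = 0.00175) and had a negative interaction (-0.31 ± 0.0973, edgeR adjusted p = 0.0143). The lipid transfer genes Atg2a and Atg2b differed from each other with age. Atg2a (chromosome 19, 6241668 to 6262335) was at 21.1 and 23.2 CPM in 6-month WT, 19 and 23.4 in 6-month KO, 13 and 14.6 in 18-month WT, and 15.5 and 15.7 in 18-month KO. Every library at 18 months lay below every library at 6 months, and Atg2a fell with age by 0.67 ± 0.147 in WT and by 0.44 ± 0.135 in KO on the log2 scale (edgeR adjusted p = 0.00042 and 0.0144). Atg2b was at 122 and 129 CPM in 6-month WT, 124 and 125 in 6-month KO, 134 and 138 in 18-month WT, and 144 and 150.4 in 18-month KO. KO at 18 months was highest, and Atg2b was higher with age in KO (0.24 ± 0.0617, edgeR adjusted p = 0.00394), against 0.11 ± 0.0647 in WT (edgeR adjusted p = 0.133). Atg9a, a scramblase on vesicles that seed the membrane, was at 64.7 and 63.4 CPM in 6-month WT, 53.4 and 59.1 in 6-month KO, 55.7 and 54.7 in 18-month WT, and 53.1 and 61.5 in 18-month KO. Both WT libraries at 6 months were above all others, and Atg9a was lower with age in WT (-0.21 ± 0.0914, edgeR adjusted p = 0.047). Atg9a shares 1878 bases of exon with Gm29253 and Ankzf1.

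Several of these calls rested on single libraries. The lower level of Wipi1 in KO at 18 months was lost without WT library 1 or KO library 1 of that age (edgeR adjusted p up to 0.0981, with 0.000931 to 0.166 over the 14 alternatives). For Wipi2 the age call in WT was lost without WT library 2 at 18 months (edgeR adjusted p up to 0.0777, with 4.35e-05 to 0.0777), and the interaction without WT or KO library 2 at 6 months or WT library 2 at 18 months (edgeR adjusted p up to 0.139, with 0.00398 to 0.398). Atg2a lost its age call in KO without KO library 2 at 6 months or either KO library at 18 months (edgeR adjusted p up to 0.291, with 0.00746 to 0.291). The age call of Atg9a in WT was lost without any single library of WT or of KO at 6 months, or of WT at 18 months (edgeR adjusted p up to 0.177, with 0.00509 to 0.285 over the alternatives, the highest from DESeq2).

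Lipidation enzymes attach Atg8 proteins to phosphatidylethanolamine. Atg7 is the activating enzyme of the cascade, Atg3 and Atg10 are conjugating enzymes, Atg12, Atg5 and Atg16l1 form the ligase-like complex, and the Atg4 proteases process and release Atg8 proteins. Of the 10 genes, 3 were higher in KO at 6 months, 2 lower in KO at 18 months, 5 higher with age in WT and 1 higher with age in KO. The shares of all tested genes in the same order were 19.2%, 17.4%, 28.2% and 13.8%. The promoter sequences of 2 of them, Atg3 and Atg5, are shown with those of 3 members of other roles. Of these genes Atg5 was called in no comparison. CACGTG holds the core letters of the E-box read by the autophagy and lysosome regulator TFEB. It occurred in few of the promoters, both of the set and of all tested genes. The windows are from RefSeq on GRCm38.p6, the build called mm10, and run from 200 bases before the RefSeq start to the base before the first transcribed base of either annotation. CACGTG is in capitals. The coordinates are chr16:45158629-45158784 (plus strand) for Atg3, chr10:44268139-44268338 (plus) for Atg5, chr11:86683837-86684036 (minus) for Vmp1, chr6:129532992-129533159 (plus) for Gabarapl1, and chr11:50210828-50211020 (minus) for Sqstm1. Exons of Gabarapl1 overlap those of 1700101I11Rik on the other strand.
Atg3: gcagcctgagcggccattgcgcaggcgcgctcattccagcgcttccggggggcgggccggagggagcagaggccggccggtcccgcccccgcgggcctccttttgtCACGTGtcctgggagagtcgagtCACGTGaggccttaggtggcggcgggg
Atg5: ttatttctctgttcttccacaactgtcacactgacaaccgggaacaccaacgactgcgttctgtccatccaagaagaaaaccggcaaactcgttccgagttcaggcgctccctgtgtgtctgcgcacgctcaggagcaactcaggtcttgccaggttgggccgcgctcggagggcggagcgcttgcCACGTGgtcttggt
Vmp1: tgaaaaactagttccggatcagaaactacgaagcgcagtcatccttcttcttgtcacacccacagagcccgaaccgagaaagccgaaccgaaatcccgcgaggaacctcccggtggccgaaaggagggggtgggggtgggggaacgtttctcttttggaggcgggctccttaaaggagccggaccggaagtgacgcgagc
Gabarapl1: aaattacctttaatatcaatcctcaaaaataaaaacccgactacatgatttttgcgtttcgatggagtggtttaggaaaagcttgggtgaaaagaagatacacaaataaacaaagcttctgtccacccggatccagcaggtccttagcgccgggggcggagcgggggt
Sqstm1: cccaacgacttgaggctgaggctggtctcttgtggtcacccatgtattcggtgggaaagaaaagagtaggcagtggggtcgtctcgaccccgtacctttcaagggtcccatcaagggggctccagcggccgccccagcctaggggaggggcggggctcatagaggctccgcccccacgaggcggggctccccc
The window of Atg3 held CACGTG 94 and 71 bases before the RefSeq start and that of Atg5 held it 14 bases before, whereas the other 3 windows had none. Over 250 bases before to 50 after each start, 4 of 36 promoters of the autophagy genes (11.1%) held CACGTG, which reads the same on both strands, against 9.26% of 14965 promoters of tested genes and 7.15% of all 32851. They were those of Atg3, Atg5, Atg7 and Atg14, and the RefSeq starts of Atg7 and Atg14 lie 27999 and 2215 bases inside the GENCODE gene. The longer GTCACGTG, which contains the first motif, was found on either strand in 3 of 36 (8.33%) and in 3.74% of the promoters of tested genes. TGACGTCA, the letters of a cyclic AMP response element, was found in 1 of 36 (2.78%, Atg5) against 2.86%. A promoter was matched for 30 of the 38 genes. Of the 4 genes with CACGTG, Atg3 and Atg7 were called in at least 1 comparison and Atg5 and Atg14 in none.

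Atg3 (chromosome 16, 45158785 to 45188538) was at 29.1 and 32.7 CPM in 6-month WT, 45.3 and 46.9 in 6-month KO, 61.2 and 57.2 in 18-month WT, and 46.6 and 48.1 in 18-month KO. WT libraries were lowest at 6 months and highest at 18 months, with the KO libraries of both ages between them. Atg3 was 1.49 times as high in KO as in WT at 6 months (0.58 ± 0.102 on the log2 scale, edgeR adjusted p = 7.01e-05), lower in KO at 18 months (-0.32 ± 0.0842, edgeR adjusted p = 0.00499) and higher with age in WT (0.93 ± 0.0983, edgeR adjusted p = 1.48e-08). Atg7 (chromosome 6, 114643097 to 114860614) was at 39.2 and 41.3 CPM in 6-month WT, 44.5 and 51.2 in 6-month KO, 54.7 and 57.8 in 18-month WT, and 44.9 and 44.9 in 18-month KO. Its libraries had the same lowest and highest group. Atg7 was lower in KO at 18 months (-0.33 ± 0.0866, edgeR adjusted p = 0.00473) and higher with age in WT (0.49 ± 0.0964, edgeR adjusted p = 0.000131). At 6 months its difference of 0.25 ± 0.0998 did not pass the test (edgeR adjusted p = 0.0503). Atg10, the conjugating enzyme for Atg12, was at 2.96 and 3.74 CPM in 6-month WT, 4.01 and 5.25 in 6-month KO, 8.9 and 7.16 in 18-month WT, and 5.11 and 6.04 in 18-month KO, a low level that limits its precision. It was higher with age in WT (1.23 ± 0.265, edgeR adjusted p = 0.000324).

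Atg4c (chromosome 4, 99193934 to 99259787) was at 35.1 and 36.9 CPM in 6-month WT, 51.5 and 44.7 in 6-month KO, 80 and 78.6 in 18-month WT, and 83.1 and 77.5 in 18-month KO. Libraries at 18 months lay above all libraries at 6 months, and the genotypes overlapped at 18 months but not at 6. Atg4c was higher with age in WT (1.14 ± 0.093, edgeR adjusted p = 1.63e-10) and in KO (0.74 ± 0.0831, edgeR adjusted p = 2.89e-07), and higher in KO at 6 months (0.42 ± 0.0994, edgeR adjusted p = 0.00153). This made it, with Rb1cc1, 1 of 2 genes that were higher with age in both genotypes (5.26% of the set, against 7.85% of all tested genes). Its relative Atg4d was at 50.4 and 39.6 CPM in 6-month WT, 50.8 and 51.9 in 6-month KO, 50 and 54.8 in 18-month WT, and 45.7 and 48.5 in 18-month KO. No pairwise comparison of Atg4d passed the test, and its interaction did (-0.35 ± 0.141, edgeR adjusted p = 0.0497); it shares 1405 bases of exon with Kri1 on the other strand. Atg12, the ubiquitin-like protein joined to Atg5, was at 26.3 and 29.4 CPM in 6-month WT, 34.4 and 34 in 6-month KO, 37.6 and 34.9 in 18-month WT, and 38.7 and 35.3 in 18-month KO. WT libraries at 6 months lay below all others, and Atg12 was higher in KO at 6 months (0.29 ± 0.114, edgeR adjusted p = 0.0447) and higher with age in WT (0.37 ± 0.112, edgeR adjusted p = 0.00626).

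Other parts of the same machinery were called in no comparison. Atg5 was at 14.2 to 16.6 CPM over the 8 libraries, Atg16l1 at 81.8 to 93.6 CPM, Atg4b, the main Atg4 protease for LC3, at 57.7 to 70.6 CPM, and Atg4a at 3.95 to 8.55 CPM. For Atg5 the 95% interval of the genotype difference was -0.35 to 0.29 at 6 months and -0.19 to 0.37 at 18 months on the log2 scale. Atg16l1 had an interaction of opposite sign to the called members (0.25 ± 0.0996), which did not pass the test (edgeR adjusted p = 0.0518). The lower level of Atg3 in KO at 18 months was lost without WT library 1 or KO library 1 of that age (edgeR adjusted p up to 0.0716, with 0.00254 to 0.122 over the 14 alternatives), and that of Atg7 without WT library 2 of that age (edgeR adjusted p up to 0.119, with 0.00199 to 0.119). Atg12 lost its call at 6 months without WT library 1, KO library 1 or KO library 2 of that age (edgeR adjusted p up to 0.208, with 0.0352 to 0.208) and its age call in WT without WT library 1 at 6 months (edgeR adjusted p up to 0.0557, with 0.00246 to 0.0557). The interaction of Atg4d was lost without WT library 2 or either KO library at 6 months, WT library 2 at 18 months or KO library 1 at 18 months (edgeR adjusted p up to 0.285, with 0.00465 to 0.389).

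Atg8 proteins are the ubiquitin-like proteins that the cascade places on the autophagosome, and their genes had the largest median differences between the genotypes of the 7 roles, 0.30 at 6 months and -0.66 at 18 months on the log2 scale. Of the 5 genes, 4 were higher in KO at 6 months, 4 lower in KO at 18 months, 4 higher with age in WT and 4 lower with age in KO, and the interaction was negative for all 5, with a median of -0.95 on the log2 scale. The shares of all tested genes in the same order were 19.2%, 17.4%, 28.2%, 17.9% and 20.7%. Microglia markers had the same order of group means as the summed Atg8 genes (82.6 CPM in 6-month WT, 109 CPM in 6-month KO, 113 CPM in 18-month WT and 43.4 CPM in 18-month KO), with 6 of 6 lower in KO at 18 months and 2 of 6 higher in KO at 6 months; the part of this in the result was not tested. Gabarap (chromosome 11, 69991143 to 69994951) was at 75.9 and 69.2 CPM in 6-month WT, 101 and 103 in 6-month KO, 134 and 129.7 in 18-month WT, and 64.1 and 76.8 in 18-month KO. KO libraries lay above WT at 6 months and below WT at 18 months, and only WT at 6 months and KO at 18 months overlapped. Gabarap was 1.41 times as high in KO as in WT at 6 months (0.49 ± 0.0853, edgeR adjusted p = 5.47e-05) and 1.88-fold lower in KO at 18 months (-0.91 ± 0.0768, edgeR adjusted p = 2.40e-09). With age it rose in WT (0.86 ± 0.0828, edgeR adjusted p = 3.05e-09) and fell in KO (-0.54 ± 0.0793, edgeR adjusted p = 1.29e-05). Its interaction of -1.40 ± 0.115 was the most negative of the 38 genes (edgeR adjusted p = 4.37e-10).

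Gabarapl1 (chromosome 6, 129533160 to 129542346) was at 91.4 and 85.3 CPM in 6-month WT, 112 and 106 in 6-month KO, 135 and 141 in 18-month WT, and 86.6 and 87.3 in 18-month KO. Its groups were ordered as those of Gabarap, with WT at 6 months and KO at 18 months overlapping. Gabarapl1 was higher in KO at 6 months (0.30 ± 0.072, edgeR adjusted p = 0.0018), lower in KO at 18 months (-0.67 ± 0.0652, edgeR adjusted p = 2.20e-08), higher with age in WT (0.65 ± 0.0699, edgeR adjusted p = 2.19e-08) and lower with age in KO (-0.32 ± 0.0672, edgeR adjusted p = 0.000703). It shares 570 bases of exon with 1700101I11Rik on the other strand. Map1lc3b (chromosome 8, 121590361 to 121598760), which encodes the LC3B protein used as the common marker of autophagosomes, was at 75.2 and 74.9 CPM in 6-month WT, 89.2 and 89.3 in 6-month KO, 95.4 and 91.8 in 18-month WT, and 77.3 and 73.4 in 18-month KO. Again KO lay above WT at 6 months and below WT at 18 months. Its differences were 0.25 ± 0.0749 at 6 months (edgeR adjusted p = 0.0101) and -0.31 ± 0.0683 at 18 months (edgeR adjusted p = 0.00101), and with age 0.32 ± 0.0737 in WT (edgeR adjusted p = 0.000744) and -0.24 ± 0.0696 in KO (edgeR adjusted p = 0.00919).

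Map1lc3a, the LC3A gene (chromosome 2, 155276297 to 155278073), was at 30.9 and 38 CPM in 6-month WT, 40.7 and 43.8 in 6-month KO, 35.4 and 35.8 in 18-month WT, and 22.5 and 22.4 in 18-month KO. KO at 18 months was lowest, and the WT libraries of both ages overlapped. Map1lc3a fell with age in KO by 0.91 ± 0.107 on the log2 scale (edgeR adjusted p = 5.81e-07), with an age difference of 0.05 in WT (95% interval -0.19 to 0.28). In KO it was higher at 6 months (0.29 ± 0.112, edgeR adjusted p = 0.0418) and lower at 18 months (-0.66 ± 0.107, edgeR adjusted p = 3.21e-05). Gabarapl2 had few reads, at 8.39 and 5.04 CPM in 6-month WT, 10.7 and 7.64 in 6-month KO, 15.4 and 11.6 in 18-month WT, and 11.3 and 8.89 in 18-month KO, and its libraries differed within groups. It was higher with age in WT (0.98 ± 0.236, edgeR adjusted p = 0.00101). Its genotype differences of 0.45 ± 0.255 and -0.39 ± 0.192 did not pass the test (edgeR adjusted p = 0.173 and 0.129). The higher level of Map1lc3a in KO at 6 months was lost without WT library 1, KO library 1 or KO library 2 of that age (edgeR adjusted p up to 0.336, with 0.0101 to 0.336 over the 14 alternatives), and its value without WT library 1 was 0.16. The interaction of Gabarapl2 was lost without WT library 2 or KO library 1 at 6 months, or WT library 1 or KO library 2 at 18 months (edgeR adjusted p up to 0.243, with 0.00699 to 0.243 over 13 alternatives). The lower level of Map1lc3b in KO at 18 months was lost with library totals without TMM (-0.17, edgeR adjusted p = 0.0694, with 0.000185 to 0.0694 over the alternatives). Its age call in KO was lost without either KO library at 6 months or KO library 2 at 18 months (edgeR adjusted p up to 0.0858, with 0.0032 to 0.113).

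**Figure D3:**
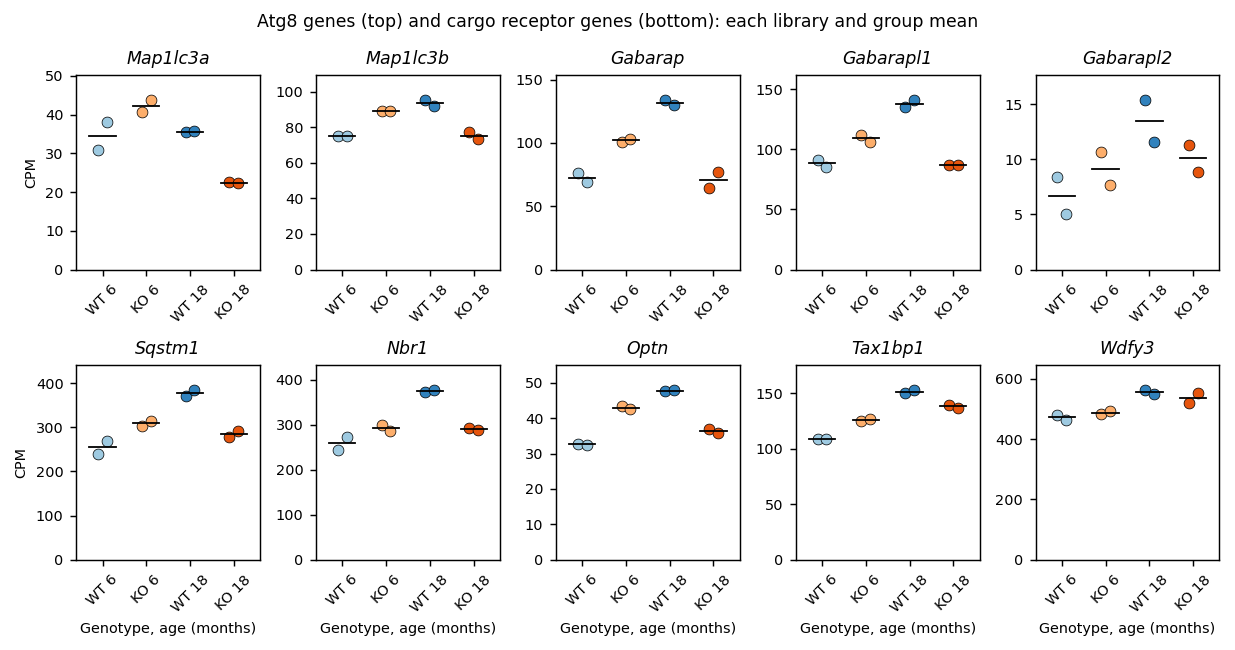
CPM (vertical axes, from 0) of the 5 Atg8 genes (top) and the 5 cargo receptor and adaptor genes (bottom) in each library (points) of the 4 groups (horizontal axes), with group means as lines. KO points lie above WT at 6 months and below WT at 18 months for Gabarap, Gabarapl1, Map1lc3a, Map1lc3b, Sqstm1, Nbr1 and Optn, and all 5 receptor and adaptor genes are higher in WT at 18 than at 6 months.

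Cargo receptors bind ubiquitin-tagged cargo and Atg8 proteins at once. All 5 genes of the role were higher with age in WT, 4 were higher in KO at 6 months, 3 were lower in KO at 18 months and 1 was lower with age in KO. The shares of all tested genes in the same order were 28.2%, 19.2%, 17.4% and 17.9%. Sqstm1 (chromosome 11, 50199366 to 50210827), the p62 gene, was at 240.0 and 269 CPM in 6-month WT, 303 and 314 in 6-month KO, 370.0 and 384 in 18-month WT, and 277 and 292 in 18-month KO. The lowest group was 6-month WT and the highest 18-month WT, and KO at 18 months lay below KO at 6 months. Sqstm1 was higher in KO at 6 months (0.28 ± 0.0623, edgeR adjusted p = 0.00089) and lower in KO at 18 months (-0.41 ± 0.0596, edgeR adjusted p = 8.87e-06), and rose 1.48-fold with age in WT (0.57 ± 0.0617, edgeR adjusted p = 2.48e-08). It shares 580 bases of exon with Mrnip on the other strand. Nbr1 (chromosome 11, 101552149 to 101581951), a receptor that acts with p62, was at 245 and 273 CPM in 6-month WT, 299 and 287 in 6-month KO, 373 and 377 in 18-month WT, and 293 and 288 in 18-month KO. Its KO libraries of the 2 ages overlapped, between the WT groups. Nbr1 was higher in KO at 6 months (0.18 ± 0.0608, edgeR adjusted p = 0.0239), lower in KO at 18 months (-0.37 ± 0.058, edgeR adjusted p = 2.56e-05) and higher with age in WT (0.53 ± 0.0601, edgeR adjusted p = 4.76e-08).

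Optn (chromosome 2, 5020642 to 5064051), the optineurin gene, whose product takes part in the removal of damaged mitochondria, was at 32.8 and 32.5 CPM in 6-month WT, 43.3 and 42.7 in 6-month KO, 47.6 and 47.9 in 18-month WT, and 36.9 and 35.7 in 18-month KO. No groups overlapped, and their order was WT at 6 months, KO at 18 months, KO at 6 months and WT at 18 months. Optn was higher in KO at 6 months (0.40 ± 0.1, edgeR adjusted p = 0.00263), lower in KO at 18 months (-0.39 ± 0.087, edgeR adjusted p = 0.00102) and higher with age in WT (0.55 ± 0.0975, edgeR adjusted p = 3.48e-05). It was lower with age in KO (-0.24 ± 0.0898, edgeR adjusted p = 0.0417). Tax1bp1, a receptor for ubiquitin-tagged aggregates, was at 109 and 109 CPM in 6-month WT, 125 and 127 in 6-month KO, 150.1 and 153 in 18-month WT, and 139.7 and 137 in 18-month KO. Its groups did not overlap either, with KO at 18 months above KO at 6 months. Tax1bp1 was higher in KO at 6 months (0.21 ± 0.065, edgeR adjusted p = 0.0147) and higher with age in WT (0.48 ± 0.0635, edgeR adjusted p = 6.11e-07), and its difference at 18 months was -0.14 ± 0.0587 (edgeR adjusted p = 0.0807).

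Wdfy3, a large adaptor for aggregates also called ALFY, was at 479.8 and 463 CPM in 6-month WT, 483 and 492 in 6-month KO, 562 and 548 in 18-month WT, and 520.3 and 554 in 18-month KO. Libraries at 18 months lay above those at 6 months, and the genotypes did not differ detectably at either age. Wdfy3 was higher with age in WT (0.23 ± 0.0542, edgeR adjusted p = 0.000672), and its age difference in KO of 0.14 ± 0.0534 just missed the threshold (edgeR adjusted p = 0.0501). Epg5, a tethering factor that brings autophagosomes to lysosomes, was the only fusion gene of the set and was at 99.4 and 92.9 CPM in 6-month WT, 104 and 108 in 6-month KO, 124 and 127 in 18-month WT, and 112 and 112 in 18-month KO. The lowest group was 6-month WT and the highest 18-month WT. Epg5 was higher with age in WT (0.38 ± 0.0683, edgeR adjusted p = 3.68e-05) and lower in KO at 18 months (-0.16 ± 0.0631, edgeR adjusted p = 0.0494). The call of Epg5 at 18 months was lost without either library of KO at 6 months, WT at 18 months or KO at 18 months (edgeR adjusted p up to 0.37, with 0.024 to 0.825 over the 14 alternatives). In KO at 6 months the call of Nbr1 was lost without WT library 1 or KO library 1 of that age (edgeR adjusted p up to 0.254, with 0.00373 to 0.254), where its value without WT library 1 was 0.11, and that of Tax1bp1 without WT library 1 (edgeR adjusted p up to 0.0514, with 0.00708 to 0.0817). The age call of Optn in KO was lost without either library of KO at 6 months, WT at 18 months or KO at 18 months (edgeR adjusted p up to 0.181, with 0.0309 to 0.25 over the alternatives, the highest from DESeq2).

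Across the roles, 12 of 38 genes (31.6%) were called higher in KO at 6 months and lower in KO at 18 months, as were 7.9% of all tested genes. They were Ulk2 of initiation, Pik3c3 of nucleation, Wipi1 and Vmp1 of vesicle formation, Atg3 of lipidation, the Atg8 genes Map1lc3a, Map1lc3b, Gabarap and Gabarapl1, and the receptor genes Sqstm1, Nbr1 and Optn. Without each library in turn 6 of the 12 kept both calls (Vmp1, Map1lc3b, Gabarap, Gabarapl1, Sqstm1 and Optn), while Ulk2, Pik3c3, Wipi1, Atg3, Map1lc3a and Nbr1 lost at least 1 of them. Library totals without TMM left both calls for 5, namely Vmp1, Gabarap, Gabarapl1, Sqstm1 and Optn. The opposite pair of directions was called for 0 of 38 genes and for 6.38% of all tested genes. The share of each role that was called lower in KO at 18 months was 4 of 5 for Atg8 genes and 3 of 5 for receptors and adaptors, against 2 of 10 for lipidation enzymes, 2 of 6 for vesicle formation, 1 of 6 for nucleation and 1 of 5 for initiation. Among all tested genes 17.4% were called lower in that comparison, which is near the shares of lipidation enzymes, nucleation and initiation. Median log2 fold changes at 18 months were -0.66 for Atg8 genes and -0.37 for receptors and adaptors. They were -0.04 for lipidation enzymes, -0.05 for vesicle formation, -0.09 for nucleation and 0.02 for initiation. Scaled to library totals without TMM, which moves the median of all genes in this comparison by 0.14, the first pair of medians was -0.52 and -0.22, while those of lipidation enzymes, vesicle formation and nucleation had the opposite sign, at 0.10, 0.09 and 0.05. Differences between roles were not tested.

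**Figure D4:**
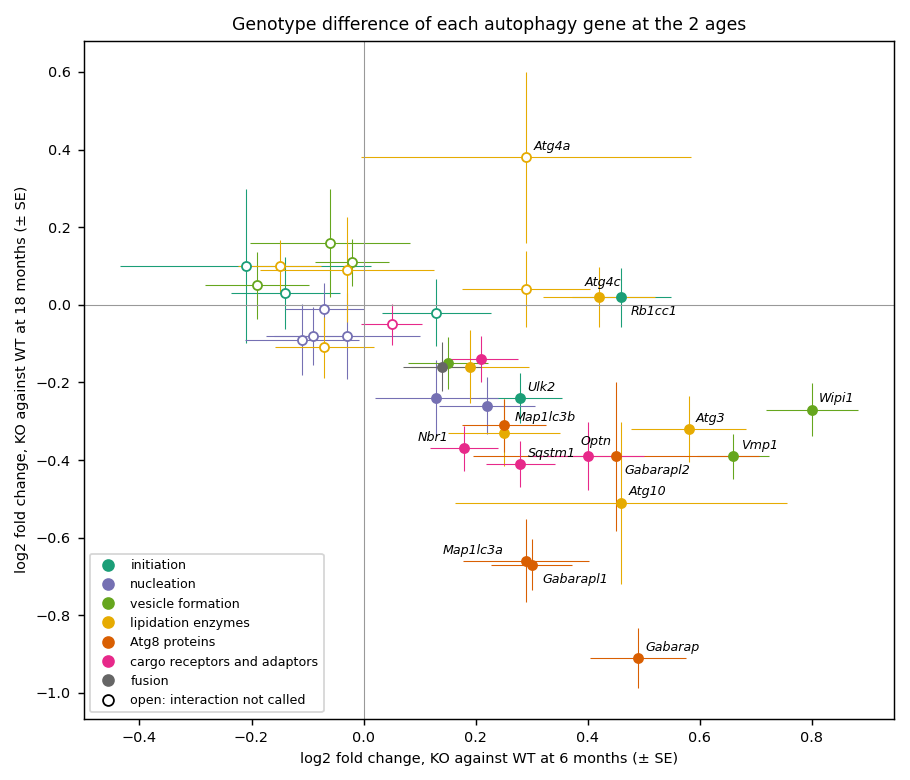
Genotype difference (log2 of KO over WT) at 6 months (horizontal axis) and at 18 months (vertical axis) for each of the 38 autophagy genes, coloured by role, with bars of ± 1 SE and filled points where the interaction of genotype and age was called. Filled points lie to the right of 0, and most lie below 0 on the vertical axis, down to Gabarap at 0.49 and -0.91.

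With age in KO, the 7 genes that were lower with age were Ulk1, Atg2a, Map1lc3a, Map1lc3b, Gabarap, Gabarapl1 and Optn, and the 3 that were higher were Rb1cc1, Atg2b and Atg4c. Map1lc3b, Gabarap, Gabarapl1 and Optn were higher with age in WT and lower with age in KO, 10.5% of the set against 3.16% of all tested genes, and Gabarap and Gabarapl1 kept both calls without each library in turn. Ulk1 and Atg2a were lower with age in both genotypes (5.26%, against 11% of all tested genes), and neither kept both calls without each library. The group mean was lowest in 6-month WT and highest in 18-month WT for 18 of 38 autophagy genes (47.4%) and for 3567 of 18205 tested genes (19.6%). The reverse held for 4 of 38 (10.5%), namely Ulk1, Atg101, Atg2a and Atg9a, and also for 19.6% of tested genes. Oligodendrocyte markers were lowest in 6-month WT and highest in 18-month WT, and the part of this in the result was not tested. KO against WT at 18 months and the age comparison in KO were also fitted without the WT libraries at 6 months, an alternative chosen after the data were seen, and there no call was lost, while Uvrag and Atg10 were added as lower in KO at 18 months (-0.24 and -0.50, edgeR adjusted p = 0.0396 and 0.0497).

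**Figure D5:**
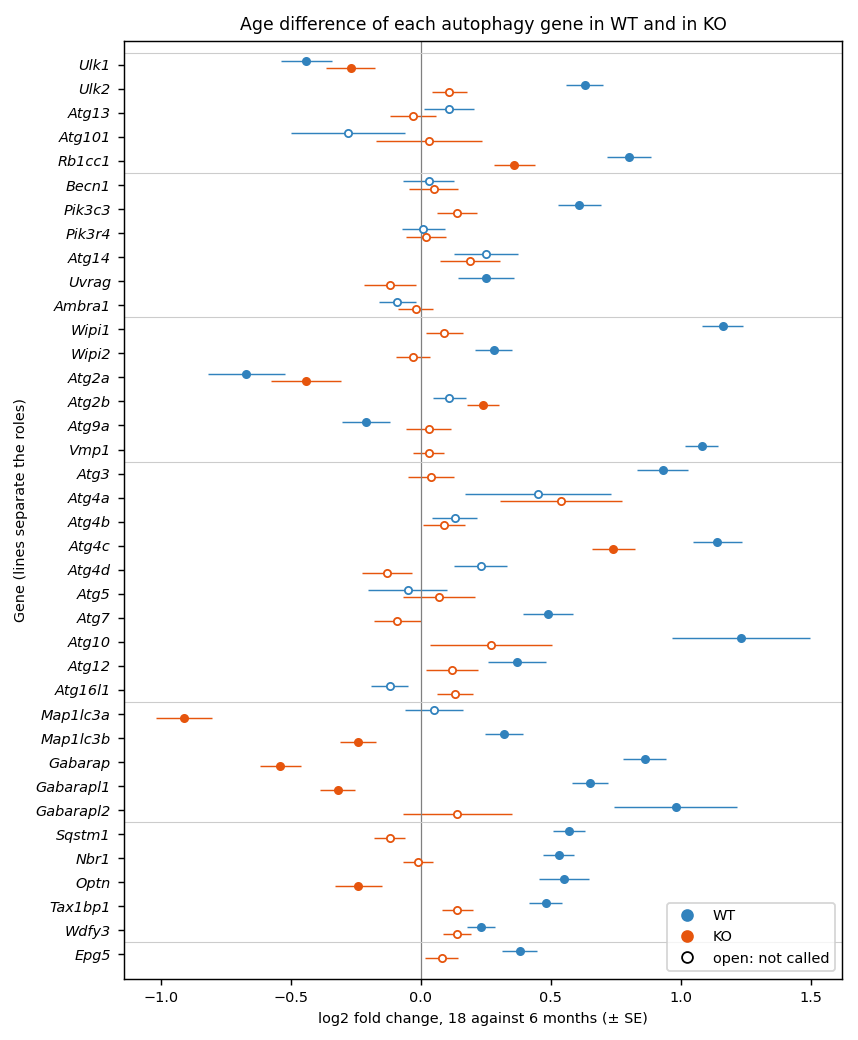
Log2 fold change of 18 against 6 months (horizontal axis, ± 1 SE) for each of the 38 autophagy genes (vertical axis, lines separate the roles) in WT (blue) and KO (orange), with filled points where the change was called. Wipi1, Vmp1 and Atg3 lie near 1 in WT (1.16, 1.08 and 0.93) and near 0 in KO (0.09, 0.03 and 0.04), and 4 Atg8 genes lie below 0 in KO.

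Relatives within a family also differed in their share of the family's level, computed from RPKM. Ulk1 made up a mean of 41% of the level of Ulk1 and Ulk2 in 6-month WT, 34.3% in 6-month KO, 24.7% in 18-month WT and 28.5% in 18-month KO. Wipi1 made up 52.3% of the level of Wipi1 and Wipi2 in WT at 6 months and 63.2% to 67.1% in the other groups. Atg4c supplied 41.2% and 46.9% of the level of the 4 Atg4 genes at 6 months and 57.4% and 58.5% at 18 months, in WT and KO. Atg2a supplied 23.5% and 22.9% of the level of the Atg2 genes at 6 months and 15.1% and 15.6% at 18 months. Map1lc3a supplied 23.3% and 22.2% of the level of the Atg8 genes at 6 months, and 16% and 16.6% at 18 months. In contrast, the share of Sqstm1 among the 4 receptor genes stayed within 55.3% to 58.7% in all 8 libraries. These shares are descriptions of 2 libraries per group and were not tested.

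A further 40 genes of autophagy control, selective autophagy and fusion were counted beside the set, 39 of which passed the filter. At 6 months 15 were higher and 8 lower in KO, where 19.2% and 19.6% of all tested genes were so called. At 18 months 1 was higher and 13 were lower, where the shares of all tested genes were 14.7% and 17.4%. With age, 19 were higher and 8 lower in WT (28.2% and 30.8% of all tested genes), and 4 higher and 3 lower in KO (13.8% and 17.9% of all tested genes). Their median log2 fold change was 0.18 at 6 months and -0.12 at 18 months for genotype. Retreg1, a receptor for the endoplasmic reticulum, was higher in KO at 6 months (0.86 ± 0.0817 on the log2 scale, edgeR adjusted p = 6.91e-09) and lower in KO at 18 months (-0.56 ± 0.0681, edgeR adjusted p = 6.01e-07). Bnip3l, a mitochondrial receptor, was higher in KO at 6 months (0.88 ± 0.104, edgeR adjusted p = 2.34e-07) and rose 2.64-fold with age in WT. Sh3glb1, which shapes membranes with the lipid kinase complex, was higher with age in both WT (1.24 ± 0.0729) and KO (0.24 ± 0.0677), with edgeR adjusted p = 3.74e-13 and 0.00821. Bcl2, which can bind Beclin 1, was the gene higher in KO at 18 months (1.00 ± 0.116, edgeR adjusted p = 2.98e-07). Pink1, the kinase that marks damaged mitochondria, was lower in KO at 18 months (-0.34 ± 0.0602, edgeR adjusted p = 0.000116).

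Of 20 lysosome genes, 5 were higher and 3 lower in KO at 6 months, and 0 were higher and 13 lower in KO at 18 months, with medians of 0.04 and -0.27. The shares of all tested genes were 19.2% higher and 19.6% lower at 6 months, and 14.7% higher and 17.4% lower at 18 months. With age, 10 were higher and 3 lower in WT (28.2% and 30.8% of all tested genes), and 1 was higher and 5 were lower in KO (13.8% and 17.9% of all tested genes). Lamp1, a major lysosomal membrane protein, was higher in KO at 6 months (0.55 ± 0.0528, edgeR adjusted p = 9.29e-09), lower in KO at 18 months (-0.56 ± 0.0511, edgeR adjusted p = 7.60e-09) and rose 2.02-fold with age in WT (1.02 ± 0.0526, edgeR adjusted p = 3.26e-14). Npc1, a cholesterol transporter, was higher in KO at 6 months (0.38 ± 0.0535, edgeR adjusted p = 3.14e-06). Ctsl and Gaa, a protease and a glycogen-degrading enzyme, were lower in KO at 6 months (-0.59 ± 0.0834 and -0.44 ± 0.064, edgeR adjusted p = 3.07e-06 and 4.79e-06). Npc2, which hands cholesterol to Npc1, was lower in KO at 18 months (-0.58 ± 0.0666, edgeR adjusted p = 3.03e-07).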

How the data were processed

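RNA-seq of sorted cortical cells gave 8 files of raw counts per gene, 1 per library. The authors' deposited counts were made on mm10 with STAR 2.5.2a and featureCounts 1.5.0-p1, after CASAVA 1.8.2, per the submitters' processing notes. The sources used here do not give the strand setting, the annotation release or the handling of multi-mapping reads. A GENCODE annotation of the same build (GRCm38) named 55480 of 55573 IDs (99.8%).

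edgeR 4.0.16 in R 4.3.3 fitted the 4 groups in 1 quasi-likelihood model (TMM scaling, a filterByExpr minimum count of 10, Benjamini-Hochberg adjustment over 18205 genes, threshold 0.05, 4 residual and 19.1 prior degrees of freedom). Tested genes took 99.7% or more of every library's counts. Total counts were 6008175 to 13551218 per library, and differences carry an SE or a 95% interval. CPM were computed here on TMM-adjusted totals, and RPKM from them with the union of annotated exons. The script was checked on simulated counts.

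The members, their roles and the other lists were chosen with earlier results of these data known. A member is described library by library if called in at least 1 of the 5 comparisons with no overlap of its groups, and the others by range; Atg4d was called in the interaction alone. Of the other lists, up to 4 genes with the smallest p per comparison may be named. Alternatives were DESeq2 1.42.0, its size factors in edgeR, library totals without TMM, no filter, a replicate block, the 2 groups alone and each library left out. Libraries of a group differed by more than counting noise (chi-square per gene 2.72 to 5.37).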

Additional observations from a re-analysis of the deposited data

Results flagged for a closer look

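The genotype difference differed between the ages for 22 of the 38 autophagy genes, by the interaction term of edgeR's quasi-likelihood model (the log2 genotype difference of the older mice less that of the younger mice). All 22 values were negative, so that KO stood lower against WT at 18 months than at 6 months. Among all tested genes 20.7% were called negative and 18.4% positive in this term. The term uses all 8 libraries, the WT libraries at 6 months that stood apart included.

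For the Atg8 genes the interaction was -1.40 for Gabarap, -0.97 for Gabarapl1, -0.95 for Map1lc3a, -0.56 for Map1lc3b and -0.84 for Gabarapl2. Among the receptor genes it was -0.79 for Optn, -0.69 for Sqstm1, -0.54 for Nbr1 and -0.34 for Tax1bp1. In vesicle formation it was -1.07 for Wipi1, -1.05 for Vmp1 and -0.31 for Wipi2. The lipidation enzymes gave -0.97 for Atg10, -0.90 for Atg3, -0.58 for Atg7, -0.40 for Atg4c and -0.35 for Atg4d. The remaining values were -0.51 for Ulk2 and -0.44 for Rb1cc1 of initiation, -0.47 for Pik3c3 and -0.37 for Uvrag of nucleation, and -0.31 for Epg5 of fusion.

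Leaving out 1 library lost 7 of these calls in at least 1 case, those of Uvrag, Wipi2, Atg4c, Atg4d, Atg10, Gabarapl2 and Epg5. That of Atg4c was lost without KO library 1 at 6 months or KO library 2 at 18 months (edgeR adjusted p up to 0.114, with 0.00589 to 0.21 over 13 alternatives, 1 of them a DESeq2 fit with its own adjusted p). That of Atg10 was lost without WT library 1 or KO library 2 at 6 months, or WT library 1 or KO library 1 at 18 months (edgeR adjusted p up to 0.171, with 0.0272 to 0.171). That of Epg5 was lost without WT library 2 of either age (edgeR adjusted p up to 0.0556, with 0.00474 to 0.378). Library totals without TMM further lost those of Rb1cc1, Pik3c3 and Tax1bp1 (-0.24, -0.28 and -0.15), with edgeR adjusted p = 0.0947, 0.0592 and 0.218, each the highest over 13 alternatives; their lowest values were 0.000347, 0.000562 and 0.000926. The oligodendrocyte and microglia markers had negative interactions in 9 of 9 and 6 of 6 genes and the astrocyte markers positive ones in 10 of 10. Of 7 oligodendrocyte precursor markers 6 were positive and 1 negative, and of 6 pericyte and smooth muscle markers 5 were positive and 0 negative. Excitatory neuron markers were negative in 4 of 6 and pan-neuronal markers in 1 of 5, with 0 positive. GABA neuron and endothelial markers were positive in 3 of 6 and 2 of 5, with 0 negative. Of 5 tested parvalbumin interneuron markers 2 were positive and 1 negative. The part of cell composition in the result was not tested.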

How the results depend on the processing

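Of the 87 calls of a gene in a comparison, 0 changed sign under any of these settings. Calls kept without each library in turn numbered 11 of 16 at 6 months and 8 of 14 at 18 months for genotype, 21 of 25 and 6 of 10 with age in WT and KO, and 15 of 22 for the interaction. Library totals without TMM gave 2 genes lower in KO at 6 months, and 2 higher and 7 lower in KO at 18 months. With age they gave 5 lower in WT, and 10 higher and 3 lower in KO. They gave 5 positive and 12 negative interactions. That scaling moved the median of all genes. Of the 18205 tested genes it called 4058 lower in KO at 6 months, and 4268 higher and 1848 lower in KO at 18 months. With age it called 6305 lower in WT, and 3839 higher and 2543 lower in KO. For the interaction it called 4769 positive and 2651 negative. For genes lower with age in KO, DESeq2 called 3 and the fit with no filter 4. Leaving out 1 library at a time gave 13 to 17 genes higher and 0 lower in KO at 6 months, 0 to 1 higher and 10 to 16 lower in KO at 18 months, 21 to 23 higher and 2 to 3 lower with age in WT, 3 to 4 higher and 3 to 7 lower with age in KO, and 0 positive and 18 to 20 negative interactions. The 1 gene higher in KO at 18 months was Atg4a, without WT library 2 of that age (0.84, edgeR adjusted p = 0.0438). Where a call was lost, the cause was not tested.

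The replicate numbers are those of technical replicates, and deviations of same-numbered libraries correlated at -5.24e-06 to 0.0758 across genes. The sources used here do not say what same-numbered libraries share besides the number. With the replicate block, 5 genes were higher with age in KO and 1 interaction was positive (Atg16l1, 0.25), and 0 calls were lost. Genes under about 10 CPM (Atg4a, Atg10, Gabarapl2) have SEs of 0.192 to 0.371, which limits what their calls show.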
